A study of Plecoglossus altivelis with 9 samples.

Results

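Among 49077 probes of a custom array of ayu (Plecoglossus altivelis) sequences, 100 were taken whose signal in macrophages was close to the untreated level at a low dose of leukocyte cell-derived chemotaxin 2 (LECT2) and higher at a 10 times larger dose. The arrays carried RNA of adherent head kidney cells kept in medium with fetal calf serum and that were given LECT2 at 5 μg/ml, at 0.5 μg/ml or none (0 μg/ml) over 3.5 h. Each dose had 3 arrays, described by the submitters as independent experiments with different fish. Each array measured the RNA of a whole culture, so a lower signal from fewer responding cells and from less RNA per cell cannot be told apart.

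LECT2 is a secreted protein, made mainly by the liver in mammals and named for its attraction of neutrophils. In mouse macrophages a C-type lectin of the CD209 family has been described as a receptor for it. The head kidney is the main blood-forming organ of teleost fish and a usual source of their macrophages, which are enriched by adherence to plastic. Macrophages change their transcripts within hours of meeting a signal protein, and a dose series separates transcripts that respond at a low dose from those that need a higher one. No file names the gene behind a probe. The 100 probes are therefore given by rank, with identifiers for the 2 that rose most, and neither their functions nor the cells' marker genes were examined.

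Probes were counted as expressed if all 9 arrays had them well above background and none carried an outlier mark, which held for 14718. Its value was the log2 intensity minus the log2 of the array's 75th percentile over all probes that were no controls, so that 0 is the 75th percentile. Of the expressed probes, 13191 had a mean at 0.5 μg/ml within 0.3 of the mean at 0 μg/ml. Among these, 637 (4.33% of the expressed probes) had their lowest array at 5 μg/ml above every array at 0 and 0.5 μg/ml, and the 100 with the largest mean at 5 minus mean at 0 μg/ml were taken. The 100 were thus chosen by their measured values at all 3 doses, and the differences between doses are given as a description that no test supports. The last probe taken, rank 100, was 1.02 higher at 5 than at 0 μg/ml on the log2 scale and the next probe 1.01. The highest difference of 0.5 minus 0 μg/ml among the 100 was 0.2999, and the nearest probe left out by that limit had 0.302.

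Without the limit on the low dose, all 3 arrays at 5 μg/ml lay above the 6 others in 895 expressed probes (6.08%). Of these, 251 were at least 0.3 higher and 7 at least 0.3 lower at 0.5 than at 0 μg/ml. The reverse order, all 3 arrays at 5 μg/ml below the 6 others, was seen in 443 probes (3.01%), of which 405 met the limit of 0.3. The 637 and 405 probes depended on the scaling between arrays. They were 570 and 653 after quantile normalization, 660 and 779 with the 75th percentile taken over probes detected on all 9 arrays, and 507 and 124 with the median in its place. Leaving out 1 array at 0.5 (replicate 3) or 5 μg/ml (replicate 2 or 3) left 1531, 1080 and 1215 probes in place of 637. The reverse order held for 913, 840 and 696 probes without the same arrays, and for 679 without replicate 1 at 5 μg/ml. Without an array at 5 μg/ml neither count can fall, since fewer arrays have to be in order.

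By the mean of the array medians, the 100 probes stood more than 1 log2 unit higher at 5 μg/ml than at either lower dose. Their median was 1.33, 0.99 and 1.56 on the arrays of replicates 1, 2 and 3 at 0 μg/ml. It was 1.09, 1.46 and 1.92 at 0.5 μg/ml, and 2.70, 2.52 and 2.81 at 5 μg/ml. The 3 arrays at 5 μg/ml were close together and, as the choice of probes required, above the rest. The arrays at 0 and 0.5 μg/ml, whose means the limit of 0.3 kept close, overlapped. Replicate 3 at 0.5 μg/ml was the highest of those 6. The means of the array medians were 1.29 ± 0.29, 1.49 ± 0.42 and 2.68 ± 0.14 at 0, 0.5 and 5 μg/ml (SD, n = 3 each). In unscaled intensity the medians were 426, 329 and 489 at 0 μg/ml, 296, 460 and 912 at 0.5 μg/ml, and 1210, 1077 and 1950 at 5 μg/ml. The 75th percentile, which the scaling sets to 0 on every array, lay at an intensity between 139 and 278 and was highest in replicate 3 at 0.5 (240) and replicate 3 at 5 μg/ml (278).

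**Figure D1:**
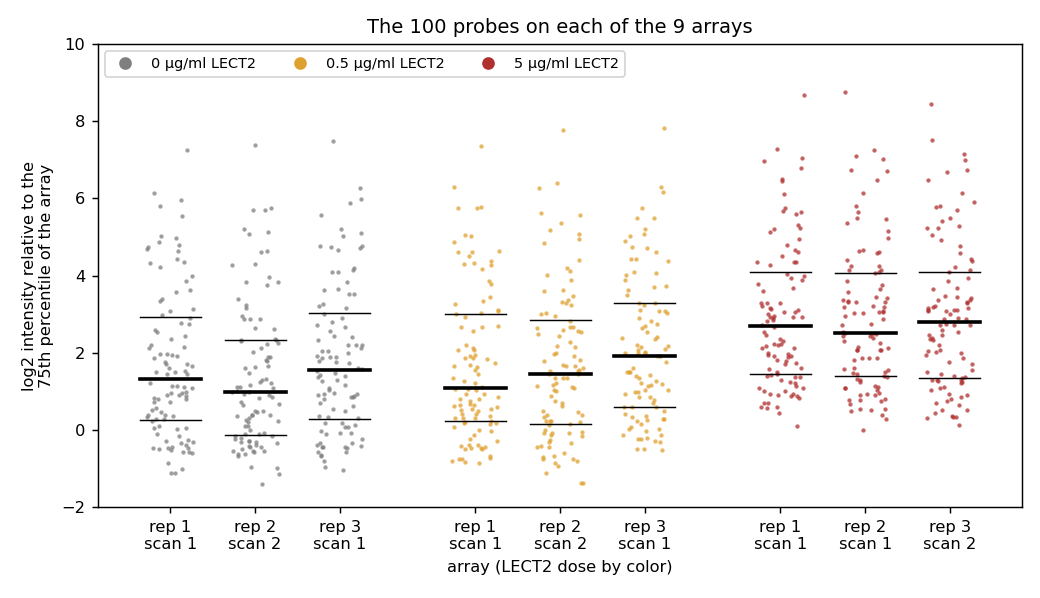
Log2 intensity of the 100 probes relative to the 75th percentile (vertical axis) on each of the 9 arrays, ordered by LECT2 dose and marked with the scan that holds the array. Points are probes, thick lines medians and thin lines quartiles. The medians at 5 μg/ml lie between 2.52 and 2.81, and those at 0 and 0.5 μg/ml between 0.99 and 1.92.

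The rise at 5 over 0 μg/ml had a median of 1.19 over the 100 probes (range 1.02 to 2.58), against 0.05 over all expressed probes (range -2.07 to 5.92). As a fold this was 2.28 (range 2.03 to 5.98). Most of the rises were thus close to the smallest: 71 probes were under 2.5-fold, 13 reached 3-fold and 4 reached 4-fold. For 5 minus 0.5 μg/ml the median was 1.02 (range 0.73 to 2.35), against 0.00 over all expressed probes. This upper step of the dose series made up a median of 83.9% of the whole rise (range 71.4% to 122%). The choice of probes set a floor to this share, since it limited the low-dose difference and took only the largest rises. The share is therefore a description and no separate evidence on the dose series. The gap between the lowest array at 5 μg/ml and the highest of the 6 others had a median of 0.37. It was over 1 in 4 probes, over 0.5 in 35 and under 0.1 in 7, and the smallest was 0.003.

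Within the limit of 0.3 that the rule set, the 100 probes lay mostly above 0 at the low dose. The mean at 0.5 minus 0 μg/ml had a median of 0.20 (range -0.23 to 0.30, or 0.852- to 1.23-fold) and was above 0 in 92 of the 100 probes. Of all expressed probes within the limit of 0.3, 63.0% were above 0, and of the 637 probes meeting the whole rule, 87.8%. These shares are a description only, since the ranking by 5 minus 0 μg/ml used the same untreated arrays. The median also varied with single arrays. It was 0.04 without replicate 3 at 0.5 μg/ml, 0.06 without replicate 2 at 0 μg/ml and 0.30 without replicate 1 at 0.5 μg/ml. Relative to the median of the expressed probes these were 0.02, 0.12 and 0.25, against 0.15 with all arrays. In 51 of the 100 the difference was 0.2 or more, which is near the upper edge of the limit. In the limma fit over all 9 arrays the 95% interval of 0.5 minus 0 μg/ml held 0 for all 100 probes, and its upper bound was above 0.3 for all 100 (median 0.86, range 0.48 to 1.76). For 28 probes it was above 1, as large as the smallest rises at 5 μg/ml. The replicate number was also used as a block. Between 0 and 0.5 μg/ml these data bear out that pairing only in part, and replicate 2 also shares a scan there. With this block the interval again held 0 and reached above 0.3 for all 100 (upper bounds 0.36 to 1.25, median 0.79). It reached above 1 for 4. The probes are therefore described by the rule and not as unresponsive to the low dose.

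**Figure D2:**
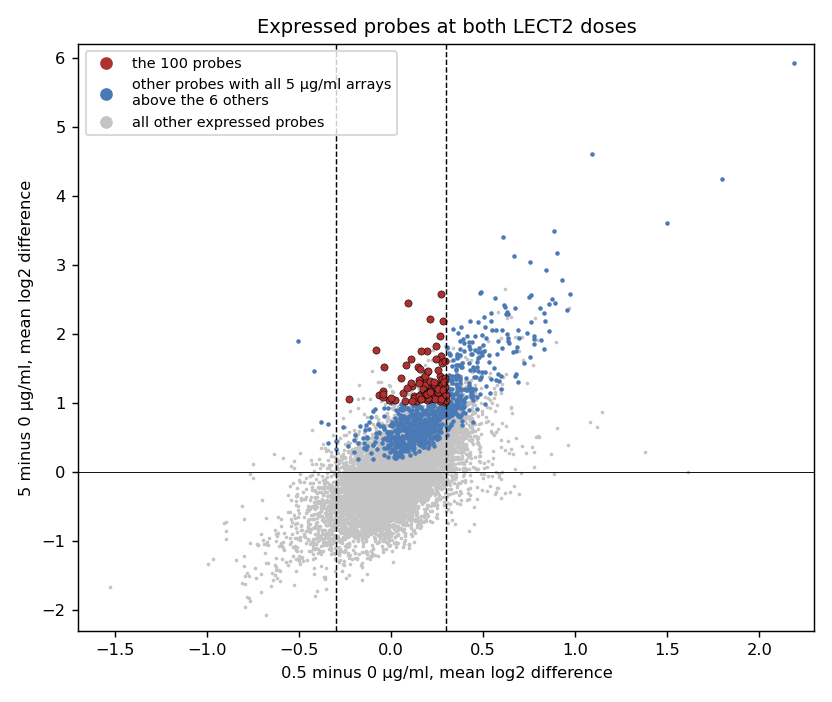
Mean log2 difference of 5 minus 0 μg/ml (vertical axis) against 0.5 minus 0 μg/ml (horizontal axis) for the 14718 expressed probes, with dashed lines at -0.3 and 0.3. The 100 probes (red) lie at 1.02 or more on the vertical axis, and 92 of them lie right of 0. Blue points are other probes with all arrays at 5 μg/ml above the 6 others.

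The largest rise was that of probe A_1000000_P0033263. Its values on replicates 1, 2 and 3 were -0.50, -1.39 and -1.03 at 0 μg/ml, -0.50, -1.38 and -0.24 at 0.5 μg/ml, and 1.95, 1.36 and 1.50 at 5 μg/ml. Its unscaled intensity was 119, 63.4 and 80.9, then 98.0, 64.3 and 204, then 722, 481 and 785 at the same doses. It thus lay below the 75th percentile on all 6 arrays at the lower doses and above it on all 3 at 5 μg/ml, with replicate 2 the dimmest at each dose and a gap of 1.60 between the groups. On replicate 2 the local background was 65 at 0 and 59 at 0.5 μg/ml, close to the probe's own intensity there. The difference was 2.58 for 5 minus 0 μg/ml and 2.31 for 5 minus 0.5 μg/ml (SE 0.35 each, from the limma fit over all 9 arrays). That of 0.5 minus 0 μg/ml was 0.27 (95% interval -0.51 to 1.05). The first lay between 1.78 and 2.82 over 21 other settings. Among these, the filters on dim probes, the blocks, the variance trend, the fit of only the arrays compared and left-out arrays at 0.5 μg/ml cannot change it.

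Probe A_1000000_P0037177 had the second rank. Its values were 1.65, 0.39 and 1.47 at 0 μg/ml, 1.45, -0.06 and 2.39 at 0.5 μg/ml, and 3.78, 2.97 and 4.08 at 5 μg/ml. Replicate 2 was again the lowest at each dose, and the arrays at 0.5 μg/ml were spread over more than 2 log2 units while none reached the lowest at 5 μg/ml. The difference of 5 minus 0 μg/ml was 2.44 (SE 0.58). It lay between 2.05 and 2.76 over the 21 other settings, of which the same ones cannot change it. With normexp background correction it was 2.28, above the 1.78 of the first-ranked probe. For 0.5 minus 0 μg/ml the difference was 0.09 with an interval of -1.20 to 1.38.

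Rank 3 had a tighter untreated group. Its values were 0.74, 1.09 and 0.88 at 0 μg/ml, 0.48, 1.36 and 1.49 at 0.5 μg/ml, and between 2.93 and 3.32 at 5 μg/ml, a gap of 1.44. The probe of rank 5 ran the other way between replicates, with 0.47, 1.90 and 0.94 at 0 μg/ml, 0.54, 2.66 and 0.92 at 0.5 μg/ml, and 2.83, 3.38 and 3.01 at 5 μg/ml. Here replicate 2 was the highest at every dose, and its value at 0.5 μg/ml came within 0.17 of the lowest at 5 μg/ml. Rank 12 had nearly equal arrays at 5 μg/ml, 1.37, 1.33 and 1.29, against -0.43, -0.24 and -0.23 at 0 μg/ml. Rank 14 had the widest untreated group of the 100, with 4.35, 1.89 and 4.14 at 0 μg/ml, 4.30, 2.48 and 4.44 at 0.5 μg/ml, and 5.24, 4.65 and 5.24 at 5 μg/ml. The mean rise of 1.58 thus included an untreated array over 2 log2 units below the other untreated ones.

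In 3 probes 1 array at 5 μg/ml stood more than 1 log2 unit above the next of its dose. Rank 21 had 0.11, 0.01 and 2.32 at 5 μg/ml, against -1.01, -0.11 and -0.79 at 0 μg/ml. Rank 30 had 4.36, 4.07 and 5.49 at 5 μg/ml, against 3.14, 3.25 and 3.63 at 0 μg/ml. Rank 34 had 2.19, 2.08 and 3.94 at 5 μg/ml, against 1.12, 1.67 and 1.58 at 0 μg/ml. The high array was replicate 3 in each, the only one of the 9 arrays on its slide. At the bright end, rank 42 had 7.26, 7.37 and 7.50 at 0 μg/ml, 7.37, 7.77 and 7.82 at 0.5 μg/ml, and 8.69, 8.77 and 8.44 at 5 μg/ml. No spot was marked as saturated, and this was the only one of the 100 at the ceiling of the authors' value table, on all 3 arrays at 5 μg/ml.

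**Figure D3:**
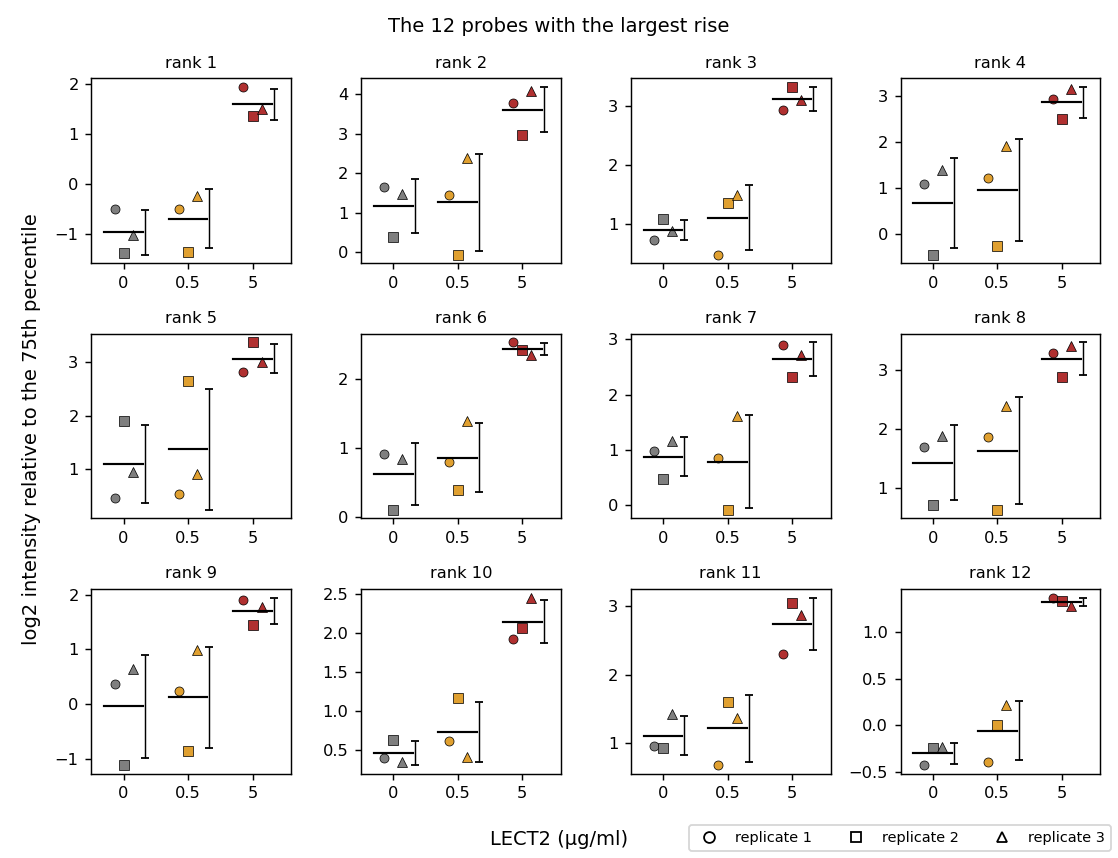
Log2 intensity relative to the 75th percentile (vertical axes, own scale in each panel) of the 12 probes with the largest rise, by LECT2 dose. Symbols mark replicates, horizontal lines the mean and vertical bars 1 SD of 3 arrays. In each panel all symbols at 5 μg/ml lie above the rest, by 1.60 at rank 1 and 0.17 at rank 5.

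Within doses, the probes varied most at 0.5 μg/ml. The median SD over the 3 arrays of a dose was 0.28, 0.47 and 0.24 at 0, 0.5 and 5 μg/ml, and the same over all expressed probes was 0.34, 0.37 and 0.25. An SD above 0.5 was found in 27, 45 and 9 of the 100 at those doses. The array nearest to the 5 μg/ml group was replicate 3 at 0.5 μg/ml in 59 probes, replicate 2 at 0.5 μg/ml in 28, replicate 1 at 0.5 μg/ml in 8 and an untreated array in 5. The lowest array at 5 μg/ml was spread more evenly, being replicate 1, 2 and 3 in 25, 39 and 36 probes. Among the expressed probes with as large a rise that were flat at the low dose, 53 missed the rule by 1 overlapping array, which was replicate 3 at 0.5 μg/ml in 37 of them.

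Part of the spread at the lower doses lay with replicate 2, the array of each of these doses that belonged to scan 2. It was the lowest array at both 0 and 0.5 μg/ml in 37 of the 100 probes and the highest at both in 13. Over all expressed probes the shares were 46.0% and 23.1%, so this ordering was no more frequent among the 100. At 0.5 μg/ml alone, replicate 1 was the lowest array in 54 probes and replicate 2 in 41. Replicate 3 was the highest there in 62 and replicate 2 in 30. The first component of the deviations from the dose means took 61.8% of their variance in the 100 probes and 63.9% in all expressed probes. In the 100 its weights were 0.54 and 0.56 on replicate 2 at 0 and 0.5 μg/ml, and -0.44 on replicate 3 at 0.5 μg/ml. Replicate 2 deviated alike at both lower doses, with a correlation of 0.77 over the 100 probes and 0.87 over the expressed ones, as a description of arrays that share a replicate number and a scan. The 37 probes with a low replicate 2 had a median rise of 1.18 at 5 over 0 μg/ml, the 13 with a high one 1.30 and the other 50 probes 1.17.

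**Figure D4:**
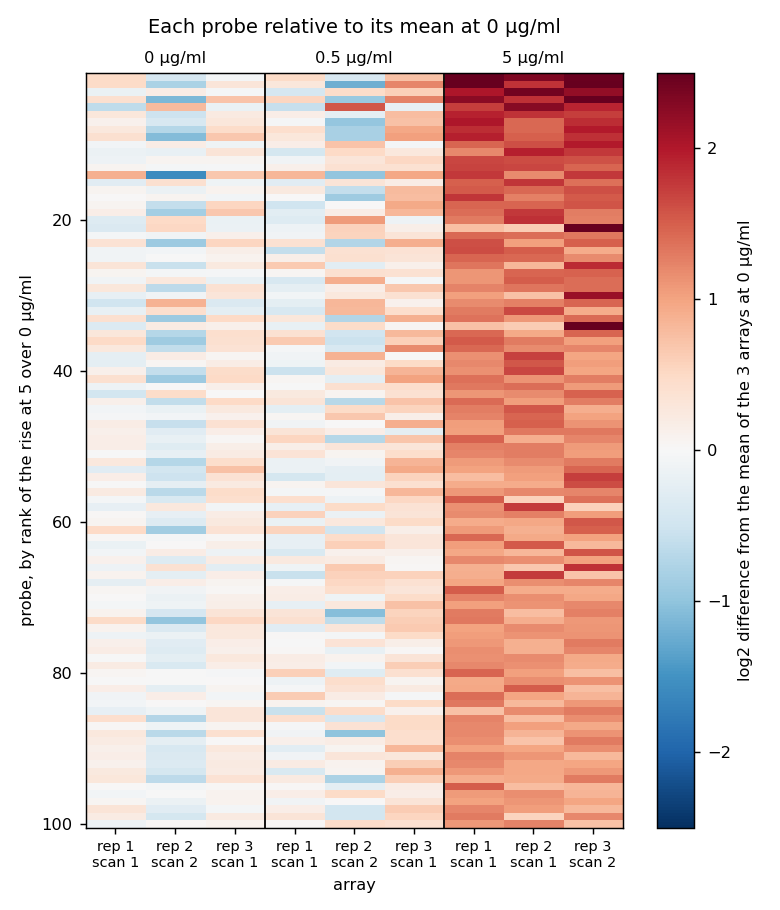
The 100 probes in rows, by rank of their rise, and the 9 arrays in columns, colored by the log2 difference from the probe's mean over the 3 arrays at 0 μg/ml (red higher, blue lower). The columns at 5 μg/ml are red throughout, and the columns of replicate 2 at 0 and 0.5 μg/ml are blue in some rows and red in others.

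Scan 1 held replicates 1 and 3 at 0 and 0.5 μg/ml and replicates 1 and 2 at 5 μg/ml, and scan 2 held the other 3 arrays. Within scan 1 the median difference of 5 minus 0 μg/ml over the 100 probes was 1.09 (expressed probes -0.03), and within scan 2, with 1 array per dose, it was 1.50 (expressed probes 0.25). For 5 minus 0.5 μg/ml the medians were 0.95 and 1.14. Each of the 100 probes was higher at 5 than at 0 μg/ml in both scans, as the choice of probes required. The low-dose difference was 0.14 within scan 1 and 0.35 within scan 2 (expressed probes -0.01 and 0.19), so that the median in scan 2 was itself above the limit of 0.3. By replicate number, 0.5 minus 0 μg/ml had medians of -0.00, 0.35 and 0.29 in replicates 1, 2 and 3.

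Over the 19995 probes tested by limma, 196 were higher at 5 than at 0 μg/ml at an adjusted p under 0.05 (0.98%) and 19 were lower (0.095%). With the 75th percentile taken over probes detected on all 9 arrays, 186 of 230 calls were higher. Of the 100 probes, 18 were called higher, and nothing is read from that count, since the same contrast had chosen them. The 18 had a median rise of 1.37 and a median SE of 0.24, and the 82 others had 1.16 and 0.33. Of the 10 largest rises 4 were called, and of the 50 probes ranked 51 to 100, 2 were. Of the 18, 13 were among the 50 probes in which replicate 2 was neither the lowest nor the highest at both lower doses. For 5 against 0.5 μg/ml, 35 probes were called higher in the whole table (0.175%) and 2 of the 100, those of ranks 1 and 3. For 0.5 against 0 μg/ml no probe was called by limma (0%). An unadjusted p under 0.05 was found for 231 of 19995 (1.16%), a share below that threshold. The limit of 0.3 on this difference kept the 100 from being called, so their own count of 0 at either threshold says nothing. For 5 against 0 μg/ml the main fit had 215 calls over all 19995 probes. Without replicate 1, 2 or 3 at 0 μg/ml these became 54, 105 and 64, and the 18 became 2, 8 and 3. Without those at 0.5 μg/ml they were 163, 371 and 275, and 12, 34 and 21 of the 100. Without those at 5 μg/ml they were 27, 42 and 42, and 0, 1 and 1 of the 100. The 2 calls against 0.5 μg/ml became 5 without replicate 3 at 0.5 μg/ml and stayed 2 without replicate 2 at 0 μg/ml. In the whole table the 35 calls became 64 and 29 without these arrays. Without any other array none of the 100 was called, and 0 to 16 of all probes.

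The mean level of the 100 at 0 μg/ml had a median of 1.25 (range -0.98 to 7.38), against 1.36 over the expressed probes. With the expressed probes split into 4 equal classes of brightness, the classes held 17, 23, 33 and 27 of the 100 from dim to bright. By place on the array, 4 equal blocks of its rows and columns held 25, 31, 24 and 20. Within 2 rows and columns of another of the 100 lay 8 probes, a count not compared with the expressed probes. No probes of the 100 had adjacent probe numbers. The median local background around their spots differed from that around all expressed probes by at most 1 intensity unit on each array. A local background at least 20% above the array's median on some array was found for 50.0% of the 100 and 40.0% of the expressed probes. The extraction software's own error estimate was a median of 10.0% to 11.2% of the signal per array, while 17 of the 100 had an intensity under 100 on some array at 0 or 0.5 μg/ml.

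Which part of the rule was lost, the step to 5 μg/ml or the flatness below it, depended on the scaling. All arrays at 5 μg/ml stayed above the 6 others in 93 probes after quantile normalization, 90 with the 75th percentile over probes detected on all 9 arrays, 97 with the median, 97 in the authors' value table and 96 after normexp background correction. The limit and the order of the arrays were both met by 90, 89, 31, 31 and 95 of the 100 under these settings. With the median or the authors' table, whose columns share a median of 37, 66 of the 69 probes lost were lost to the limit of 0.3 on the low dose alone. Under the other scalings more were lost to overlap of the arrays. Overlap alone lost 7 (quantile), 10 (percentile over probes detected on all 9 arrays) and 4 (normexp). The limit alone lost 3, 1 and 1. Under the median scaling the expressed probes as a whole moved by 0.19 at 0.5 minus 0 μg/ml and by 0.27 at 5 minus 0 μg/ml. On 8 of the 9 arrays fewer than 50% of the probes were well above background, so the median of those arrays lay among probes near background. The median and the 75th percentile each subtract 1 constant per array, so the low-dose difference of the 100 relative to the expressed probes, 0.15, was the same under both by construction.

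Leaving out 1 array at 0 μg/ml left 70, 77 and 54 of the 100 (without replicate 1, 2 and 3), and leaving out 1 at 0.5 μg/ml left 50, 60 and 86. All of these losses were to the limit of 0.3, since removing an array cannot make groups overlap that were apart, and removing an array at 5 μg/ml leaves all 100 for the same reason. These counts do not rank the rises again. With the 100 largest rises taken anew, 68, 23 and 54 were chosen again without replicate 1, 2 or 3 at 0 μg/ml. Without those at 0.5 μg/ml 50, 60 and 17 were, and without those at 5 μg/ml 81, 47 and 76. Under all 5 other scalings 28 probes met the rule, with a median of 0.09 for 0.5 minus 0 μg/ml. The median scaling and the authors' table are nearly the same scaling. Under the other 3 scalings, without them, 80 probes met the rule. Without each of the 9 arrays in turn 15 did, and under all of these 14 settings 12 did. These 12 had a median rise of 1.09 at 5 over 0 μg/ml, differences of -0.04 to 0.16 at 0.5 over 0 μg/ml, and a best rank of 15. That probe had 5.02, 5.70 and 5.20 at 0 μg/ml, 5.01, 5.63 and 5.50 at 0.5 μg/ml, and 6.79, 7.10 and 6.68 at 5 μg/ml. Neither A_1000000_P0033263 nor A_1000000_P0037177 was among the 12, although the second of them met the rule under all 5 scalings.

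**Figure D5:**
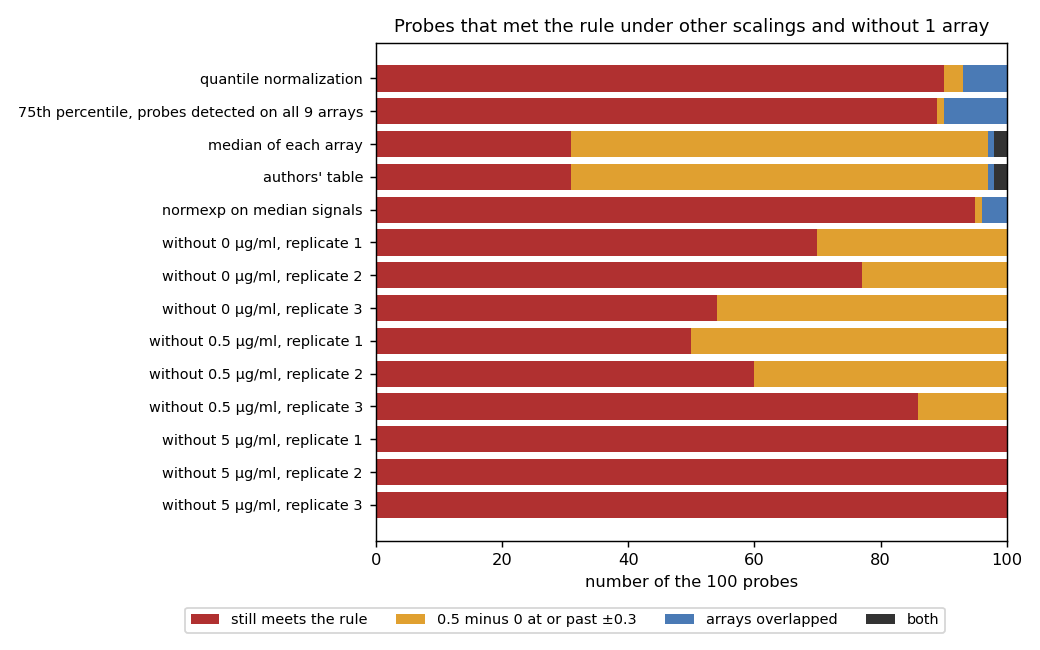
Number of the 100 probes (horizontal axis) that met the rule under 5 other scalings and without each array in turn (rows), without ranking the rises again. Colors show whether a probe was lost to the limit of 0.3 on 0.5 minus 0 μg/ml, to overlap of the arrays at 5 μg/ml with the others, or to both. The shortest red bars, at 31, are the median scaling and the authors' table.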

How the data were processed

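The authors deposited 1 scanner file per array (Cy3 label, Agilent Feature Extraction 10.7.3.1 per the submitters' processing notes), of which the background-subtracted processed intensity was used. The values deposited for replicate 3 at 5 μg/ml are rounded to 3 significant digits. The authors' value table holds the same intensity times a constant per array (0.754 to 1.36) on a linear scale, except for 52 to 133 probes per array that share the highest value of their column, and served as an alternative. Doses and replicate numbers came from the titles. The field that gives 0 μg/ml for all arrays, and the extraction text, which describes plant material, were not used.

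Intensity was scaled to each array's 75th percentile and put on the log2 scale. Between 16531 and 24887 of the 49077 probes were well above background per array, and the 3 arrays per dose limit the precision. limma 3.58.1 in R 4.3.3 (lmFit, eBayes, Benjamini-Hochberg) was fitted without a block to the 19995 probes that at least 1 dose had well above background in all 3 replicates, with outlier spots set as missing, and was tested on simulated data. A probe was called at an adjusted p under 0.05. The 2 probes with the largest rise are named, and other ranks were singled out after their values were seen. The rule and the choice of probes were made with earlier results of these data known.

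Alternatives were other scalings, limits and filters, normexp (offset 50) on the median signal, blocks for scan and replicate number, a variance trend, and leaving out arrays. Deviations of arrays with the same number correlated at 0.38, 0.81 and 0.68 between 0 and 0.5 μg/ml. The numbers came from the titles, which do not say that equal numbers are pairs. Besides these correlations, the submitters' description of independent experiments with different fish bears on such a pairing. Between 0 and 5 μg/ml equal numbers correlated at 0.41, 0.15 and -0.11. The main fit took no numbers as pairs. The fit with the replicate number as a block covered all 9 arrays, so it matched the numbers at 5 μg/ml as well.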

Additional observations from a re-analysis of the deposited data

How the results depend on the processing

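When arrays were left out, which cannot turn the direction of 5 minus 0 or 5 minus 0.5 μg/ml given how the probes were chosen, the median differences over the 100 probes were 1.06 to 1.29 for 5 minus 0 μg/ml, 0.96 to 1.14 for 5 minus 0.5 μg/ml and 0.04 to 0.30 for 0.5 minus 0 μg/ml. Within scan 2 the first was 1.50. Over all 637 probes meeting the rule the medians were 0.66 and 0.53 for 5 minus 0 and 5 minus 0.5 μg/ml. When probes dim at some doses were admitted, the 100 taken held 28 of these probes and had medians of 1.64 and 1.56. A limit of 0.2 left 48 of the 100, the median scaling and the authors' table left 31 each, and left-out arrays 50 to 100. Left-out arrays gave 529 to 1531 probes meeting the rule and 410 to 913 in the reverse order. Without replicate 2 at both 0 and 0.5 μg/ml, an alternative chosen after seeing the data, these were 1484 and 2307. The reverse order held for 653 (quantile), 779 (percentile over probes detected on all 9 arrays), 124 (median) and 121 (authors' table) probes. Leaving out an array at 5 μg/ml cannot lower either count, since fewer arrays have to be in order. The cause of the other changes was not tested.

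Calls by limma among the 100 for 5 against 0 and 5 against 0.5 μg/ml were 11 and 0 (quantile), 15 and 1 (percentile over probes detected on all 9 arrays), 14 and 1 (median), 13 and 1 (authors' table), 41 and 6 (normexp, chosen after seeing the data), 0 and 0 (no filter on dim probes, 49077 tested), 63 and 8 (scan as a block), 31 and 0 (only the 6 arrays compared), and 31 and 8 (without replicate 2 at both lower doses). Left-out arrays gave 0 to 34 and 0 to 5. Calls over all probes changed too, so the counts among the 100 are not read as specific to them. For 5 against 0 μg/ml all-probe calls were 148 (quantile), 230 (percentile), 199 (median) and 194 (authors' table) in place of 215. They were 268 (normexp), 812 (scan), 398 (without replicate 2 at both lower doses) and 21 (no filter). With only the 6 arrays compared they exceeded 215. For 5 against 0.5 μg/ml they were 18 (quantile), 18 (percentile), 20 (median), 20 (authors' table), 43 (normexp) and 85 (scan) in place of 35. They were 63 without replicate 2 at both lower doses, 8 with only the 6 arrays compared and 0 with no filter. With the replicate number as a block, which matched the numbers at 5 μg/ml too, the calls among the 100 were 91 and 19. Of all 19995 probes, 1100 were then called for 5 against 0 μg/ml in place of 215. For 5 against 0.5 μg/ml 243 were called in place of 35. Between 0 and 0.5 μg/ml not every array correlated best with its own number, since replicate 1 at 0 μg/ml was closer to replicate 3 at 0.5 μg/ml (0.55) than to replicate 1 (0.38). normexp on the mean signal, planned at first, was not run.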
